A study of Danio rerio with 4 samples.

Results

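Aquaporins were examined in hearts of ccm2 mutant and wild-type (WT) zebrafish embryos. Members were selected on platform symbol and mean signal: a gene was taken when the array platform annotated a probe to a symbol made of aqp and a digit, and at most the 10 genes with the highest mean log2 signal over the 4 arrays were kept. The rule found 13 probes for 11 genes, so that 10 genes with 12 probes were described, of 14434 genes named on the array. Hearts were dissected by hand from embryos at 72 hours post fertilization (hpf), and RNA from pooled hearts was hybridised to 1 single-colour array per sample, all on 1 slide. The mutant group held 2 pools of hearts from embryos carrying the ccm2 m201 allele, and the WT group held 2 pools from WT embryos. For both mutant samples the description speaks of Bmp2b overexpression, which no title, source or genotype mentions, and this conflict is not resolved by the labels. The comparison asks which cardiac genes depend on Ccm2, an adaptor of the cerebral cavernous malformation complex in endothelial cells. Whether the pools stem from separate clutches is not labelled, and p-values therefore measure only the spread between these samples, which may be technical. In such bulk tissue, more cells of a type and more RNA per cell cannot be told apart.

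Aquaporins are membrane channels that let water cross cells along an osmotic or hydrostatic gradient. Classical members pass mainly water, aquaglyceroporins also pass glycerol and urea, and Aqp8-type channels are known from mammals to pass ammonia and hydrogen peroxide as well. In zebrafish, aqp1a.1 and aqp8a.1 are the aquaporin genes known from endothelial cells of growing vessels, and aqp1a.1 is also known from red blood cells.

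The dissections carried heart RNA: the brightest cardiomyocyte markers were actc1a, a cardiac actin gene, and nppa, a natriuretic peptide gene. Of 7 tested cardiomyocyte markers, 0 passed the test for a difference between the groups. Their log2 differences ran from -0.76 for tnnc1a to 0.88 for myh6. Between 55.0% and 55.7% of the 43803 features were well above background on mutant arrays and between 54.0% and 55.9% on WT arrays, and none reached the saturation signal. With 2 arrays per group, the precision of every value is limited by the number of arrays. The ccm2 transcript itself lay at 5.16 and 4.92 in mutants and at 5.45 and 5.79 in WT, so that mutants differed by -0.58 ± 0.22 (SE), not past the threshold (limma adjusted p = 0.168). Markers of other cell types differed between the groups and between the WT arrays. They are given beside aquaporins below, whether or not they moved the same way.

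Among the genes with an aqp symbol, members were kept by their rank on mean signal. The members were chosen with earlier results of these data known, so the choice was not blind to the group differences. aqp10b, with a mean log2 signal of 1.95, was the last gene taken and aqp10a, with 1.77, the first left out. All values below are log2 processed signals scaled to the 75th percentile of each array. Each probe has its own brightness, so signals of different genes are not levels that can be set against each other. 9 of the 10 genes passed the filter on dim signal, which asked for a signal above the 40th percentile of the array on at least 2 arrays. aqp10b did not pass and was not tested. aqp4 passed only through its WT arrays, so a fall in mutants was built into its passing.

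A trio of aquaporin genes was higher in ccm2 mutant hearts: aqp8a.1 by 11.2-fold, aqp1a.1 by 4.1-fold and aqp8a.2 by 3.28-fold. No aquaporin gene was lower past the test. Of the 9 tested members 3 passed and 6 did not, by limma at a threshold of 0.05 after Benjamini-Hochberg adjustment across the 26872 probes tested. Over all 11536 tested genes 17.1% passed, 8.09% as higher and 9.02% as lower in mutants. Those higher made up 933 of the 1974 passing genes, a split that was 1132 of 1947 with median scaling and 1291 of 2060 with unscaled values. The median log2 difference of the 9 tested members was -0.37, beside -0.04 over all tested genes, since the other 6 lay below 0. The 4 arrays separated without overlap in 6 of the 9, beside 67.8% of all tested genes, a similar share. These 6 include aqp4, whose separation was built into its passing the filter.

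**Figure D1:**
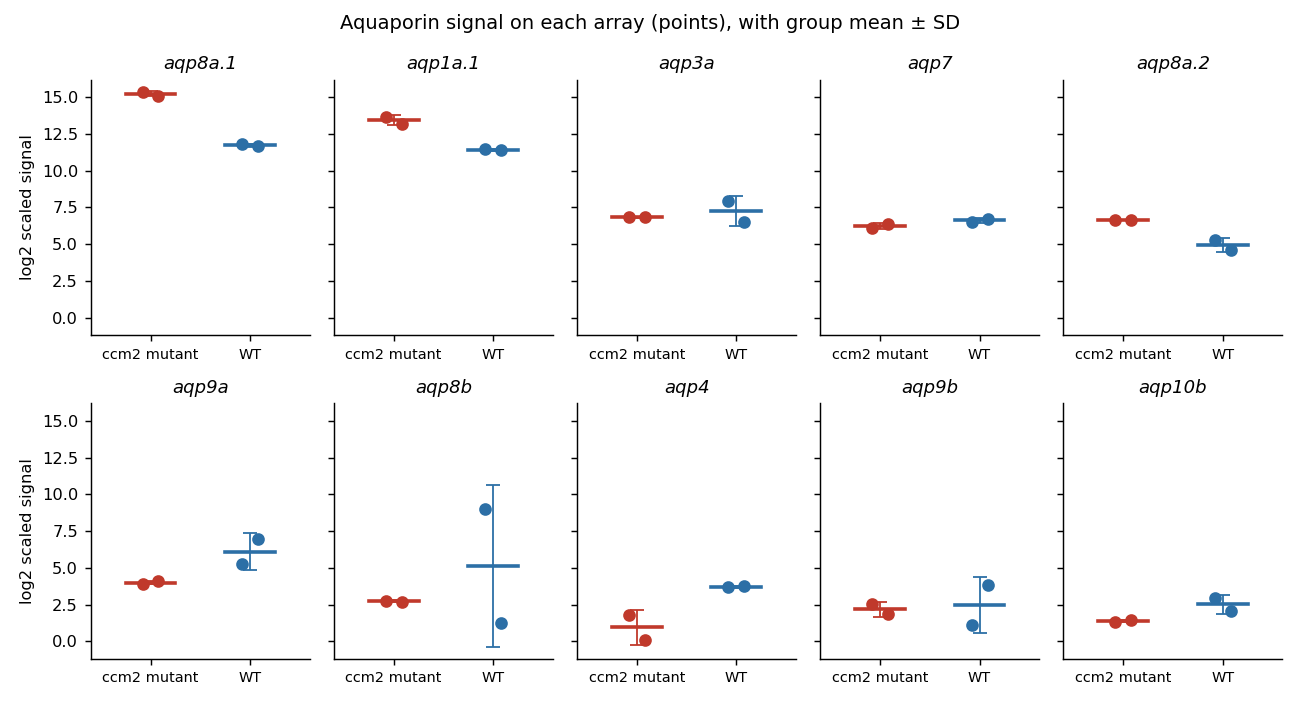
Log2 scaled signal of the 10 aquaporin genes, with 1 point per array, ccm2 mutant arrays in red on the left and WT arrays in blue on the right of each panel; horizontal bars are group means and error bars SD (n = 2). aqp8a.1, aqp1a.1 and aqp8a.2 have both mutant points above both WT points, and aqp8b spreads from 1.22 to 9.04 between the WT arrays.

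The endothelial water channel gene aqp8a.1 had the largest difference. Its log2 signal was 15.36 and 15.12 on the mutant arrays, against 11.83 and 11.68 on the WT arrays. Both mutant arrays lay far above both WT arrays, and the gap within each group was small beside the gap between them. As deposited, before scaling, the processed signals were 43500 and 40000 in mutants and 3250 and 3150 in WT. The means were 15.24 ± 0.17 in mutants and 11.75 ± 0.11 in WT (SD, n = 2 each), a log2 difference of 3.49 ± 0.19 (SE, limma adjusted p = 0.00765). The 95% interval of the fold ran from 7.73 to 16.3. Among the 11536 tested genes, 90 had a higher difference. Leaving out mutant replicate 1 gave a log2 difference of 3.37 and an adjusted p of 0.0586, and leaving out mutant replicate 2 gave 3.61 and 0.0575; in those fits limma passed 0 genes of the whole table, with 3670 and 3770 genes at an unadjusted p under 0.05.

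aqp1a.1, a classical water channel gene of endothelium and red blood cells, rose as well. Its log2 signal was 13.69 and 13.22 on the mutant arrays, against 11.46 and 11.38 on the WT arrays. The groups did not overlap, and the mutant arrays differed from each other more than the WT arrays did. The means were 13.46 ± 0.34 in mutants and 11.42 ± 0.05 in WT (SD, n = 2 each), a log2 difference of 2.03 ± 0.24 (SE, limma adjusted p = 0.0183), with a fold interval from 2.59 to 6.48. The call was lost when any array was left out: the adjusted p was 0.0634 without mutant replicate 1, 0.0575 without mutant replicate 2, 0.0790 without WT replicate 1 and 0.0877 without WT replicate 2, over log2 differences of 1.80 to 2.27.

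aqp8a.2, which encodes a second Aqp8a channel, was the third gene to rise, at a much dimmer signal. Its log2 signal was 6.65 and 6.67 on the mutant arrays, against 5.26 and 4.63 on the WT arrays. Both mutant arrays lay above both WT arrays, and the WT arrays were the more spread. The log2 difference was 1.71 ± 0.28 (SE, limma adjusted p = 0.0336), with a fold interval from 1.91 to 5.62. This call was the least stable: the adjusted p was 0.0576 with no filter, 0.115 and 0.105 on leaving out mutant replicate 1 or 2, and 0.0584 and 0.105 on leaving out WT replicate 1 or 2, over log2 differences of 1.39 to 2.03. With background corrected by normexp on the raw median signal, the log2 difference was 0.64 (limma adjusted p = 0.0337).

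In the reference annotation (GRCz12tu), aqp8a.2 and aqp8a.1 are next to each other, with the globin gene hbae5 on one side of the pair and lcmt1, a methyltransferase gene, on the other. These neighbours were looked up after the values were seen. hbae5 was at 6.07 and 5.77 in mutants against 7.91 and 7.23 in WT, and fell by 1.65 on the log2 scale (limma adjusted p = 0.0443). lcmt1 was at 9.90 and 9.58 in mutants against 8.97 and 8.95 in WT, which gave 0.78 ± 0.20 (SE) as log2 difference and was not called (limma adjusted p = 0.0774). aqp1a.2, the neighbour of aqp1a.1, has no named probe among those used here. Neighbours of the other members were looked up as well. Of these, kctd1 beside aqp4 differed by -2.60 (limma adjusted p = 0.0121) and aldh1a2 beside aqp9b by 1.35 (limma adjusted p = 0.0204). The rest that were tested did not pass. Probe sequences were not used here, so cross-hybridisation between aqp8a.1 and aqp8a.2, or between aqp1a.1 and aqp1a.2, was not tested.

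**Figure D2:**
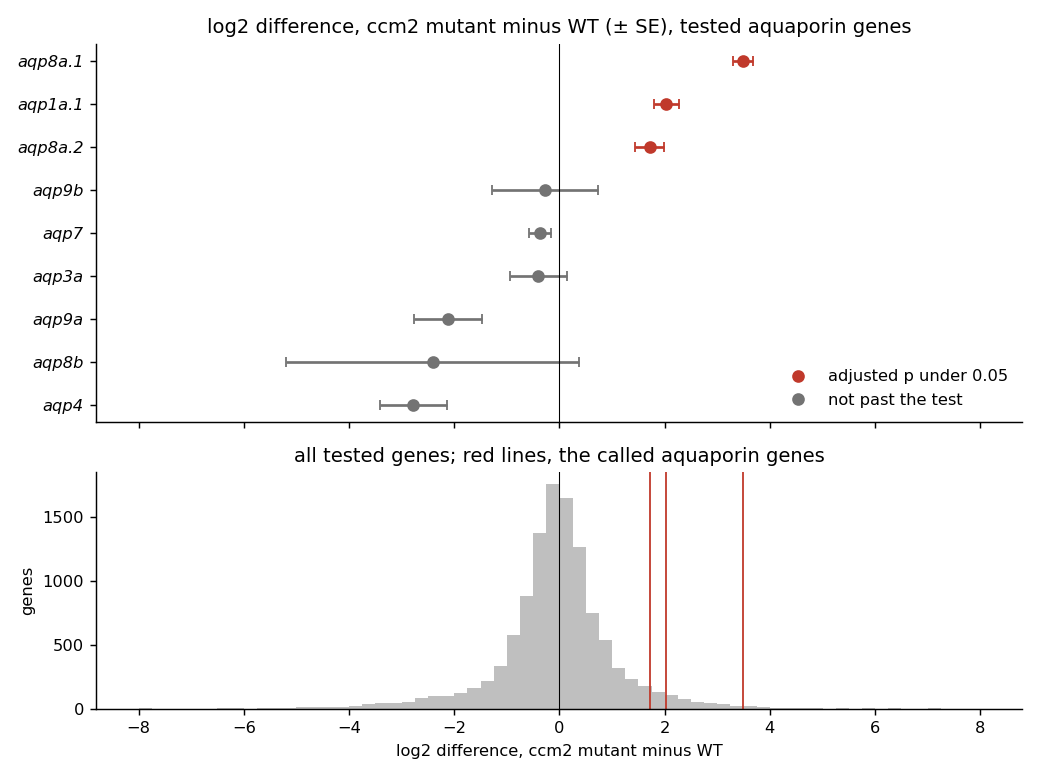
Top, log2 difference (ccm2 mutant minus WT) with its SE for the 9 tested aquaporin genes, red where the limma adjusted p was under 0.05 and grey otherwise. Bottom, histogram of the same difference over 11536 tested genes, with red lines at the 3 called aquaporin genes; 90 genes lie to the right of aqp8a.1.

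Differences taken within an array do not depend on the scaling between arrays. The log2 signal of aqp8a.1 exceeded that of aqp1a.1 by 1.67 and 1.90 on the mutant arrays, against 0.37 and 0.29 on the WT arrays. aqp8a.1 therefore moved further than aqp1a.1 on both mutant arrays, by 1.45 on the log2 scale. aqp8a.1 minus aqp8a.2 was 8.71 and 8.46 on the mutant arrays, against 6.56 and 7.05 on the WT arrays. With 2 arrays against 2, an exact two-sided permutation test of such a value cannot go below p = 0.333, so these contrasts can be described only.

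Of 12 tested endothelial and endocardial markers, 4 rose, 0 fell and 8 missed the threshold, with a median log2 difference of 0.50. The differences were above 0 in 9 of the 12 and below 0 in 3, which were nfatc1, a transcription factor gene of the endocardium, at -0.94 (limma adjusted p = 0.0656), sox7 at -0.25 and erg at -0.24. They ran from -0.94 to 1.64, and 0 of the 12 exceeded that of aqp8a.1, aqp1a.1 or aqp8a.2. For aqp8a.2 this depended on the background: with normexp on the raw median signal it differed by 0.64. That was below lmo2 at 1.57, egfl7 at 1.30, esama at 1.21 and tek at 1.12, and above the other markers. The brightest 2 of the 12 were tek, an angiopoietin receptor gene, with a log2 difference of 1.07, and egfl7, a secreted endothelial factor gene, with 1.20. Summed over the 12 markers, scaled signal was 83686 and 69847 on the mutant arrays, against 46938 and 47209 on the WT arrays, and each marker was well above background on at least 1 array. aqp8a.1 exceeded the mean log2 signal of these markers by 3.74 and 3.72 on the mutant arrays, against 0.84 and 0.64 on the WT arrays. For aqp1a.1 the same excess was 2.07 and 1.82 on the mutant arrays, against 0.47 and 0.34 on the WT arrays. Both channels thus gained on the mean of these markers, by 2.99 and 1.54 on the log2 scale. The part of a larger endothelial share in their rise was not tested.

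Of 12 tested red blood cell markers, 9 fell, 1 rose and 2 missed the threshold, with a median log2 difference of -3.34, and 2 of the 9 passed the filter on dim signal only through their WT arrays. The brightest, the globin genes hbae3 and hbae1.1, differed by -2.67 and -2.97. The summed signal of the list was 15267 and 11788 on the mutant arrays, against 103105 and 90898 on the WT arrays. aqp1a.1 exceeded the mean of the 12 markers by 6.67 and 6.24 on the mutant arrays, against 1.43 and 1.49 on the WT arrays. This mean includes gata1a and tfr1a, which passed the filter only through WT and were well above background on neither mutant array. Part of the contrast between the groups was thus built in. Leukocyte markers rose in 7 of 7 tested genes, with a median of 2.23 and a summed signal of 4824 and 4930 in mutants against 1184 and 1023 in WT; lcp1, an actin-bundling protein gene, differed by 1.94 and marco, a scavenger receptor gene, by 2.06. Among the other marker lists, 2 of 5 epicardial genes rose and 0 fell, 1 of 7 skeletal muscle genes rose and 2 fell, 3 of 3 cartilage genes fell, and the 1 tested lens gene did not pass. The part of these cells in the aquaporin differences was not tested.

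**Figure D3:**
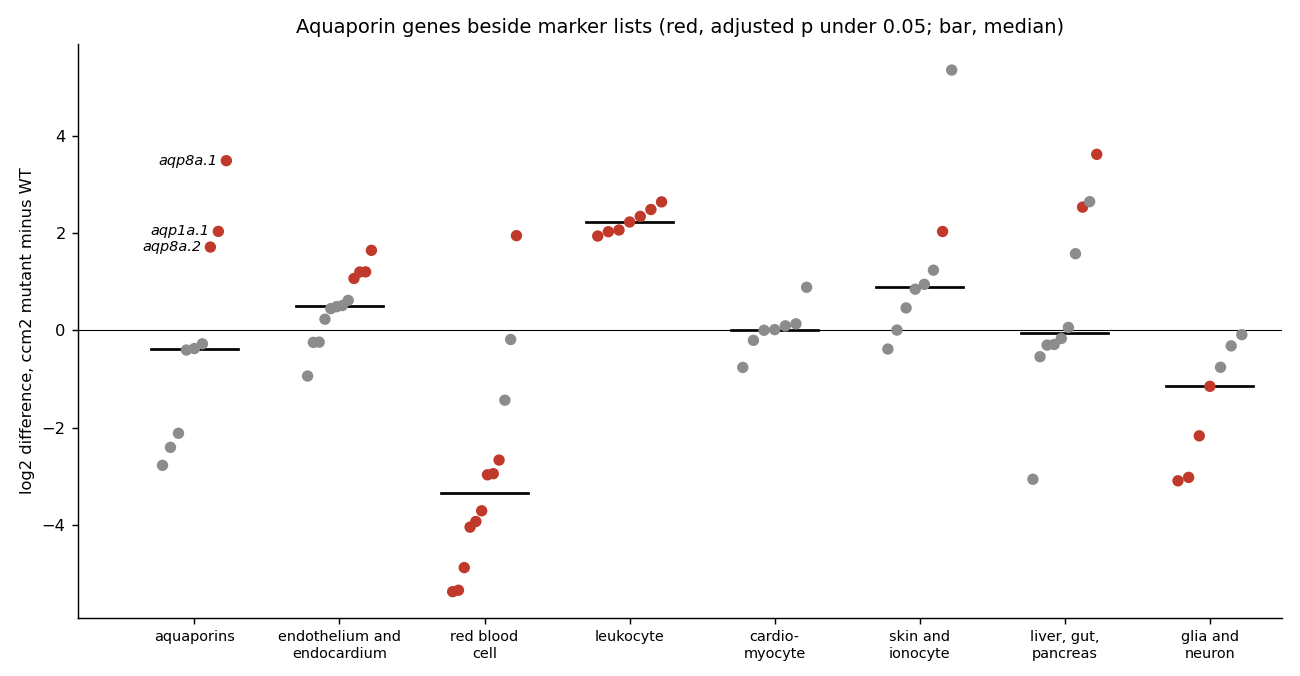
Log2 difference (ccm2 mutant minus WT) of each tested aquaporin gene, at the left, and of each tested marker in 7 cell type lists; red points passed the test, grey points did not, and bars are medians. Under the reported setting, aqp8a.1, aqp1a.1 and aqp8a.2 lie above the 12 endothelial markers, while 9 of 12 red blood cell markers fell. With normexp on the raw median signal, not shown here, aqp8a.2 did not exceed all of those endothelial markers.

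The aquaglyceroporin genes did not pass the test. aqp3a, known from skin and ionocytes, was at 6.82 and 6.87 on the mutant arrays, against 7.97 and 6.53 on the WT arrays. The mutant values lay between those of the WT arrays. The log2 difference was -0.41 ± 0.54 (SE, limma adjusted p = 0.658), with a 95% interval from -1.91 to 1.1, and it turned to 0.32 without WT replicate 1. Of 8 tested skin and ionocyte markers 1 rose and 7 did not pass. The summed signal of the list was 46127 and 40528 on the mutant arrays, against 29828 and 18631 on the WT arrays. Its member cldne was at 4.24 and 12.71 on the mutant arrays, so it adds to the sum mainly on mutant array 2. slc4a1b was well above background on no array. The brightest member krt4, a keratin gene, differed by 0.0053, and icn, an S100-type gene, by 2.03.

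aqp7, an aquaglyceroporin gene of fat and heart in mammals, was the member with the most probes. Its brightest probe gave 6.12 and 6.38 on the mutant arrays, against 6.50 and 6.74 on the WT arrays. Both mutant values lay below both WT values by less than 1 log2 unit. The log2 difference was -0.37 ± 0.21 (SE, limma adjusted p = 0.298), with an interval from -0.95 to 0.20. The other 2 probes gave -0.57 ± 0.43 and -0.35 ± 0.26 (SE), and neither passed. As a fold, the interval of the brightest probe ran from 0.516 to 1.15.

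aqp9a and aqp9b, whose mammalian relative passes glycerol and urea in liver, were spread widely among WT arrays. aqp9a was at 3.91 and 4.08 on the mutant arrays, against 5.23 and 6.99 on the WT arrays. Both mutant arrays lay lower, with a log2 difference of -2.12 ± 0.65 (SE, limma adjusted p = 0.111), or -0.93 with normexp on the raw median signal. It passed only without WT replicate 1, at -2.99 (limma adjusted p = 0.0421), over a range of adjusted p from 0.0421 to 0.266 among the alternatives. aqp9b was at 2.54 and 1.83 on the mutant arrays, against 1.12 and 3.81 on the WT arrays. The groups overlapped, 1 of the 4 arrays was well above background, and the log2 difference was -0.28 ± 1.00 (SE, limma adjusted p = 0.877). aqp10b was at 1.32 and 1.46 in mutants and at 2.98 and 2.05 in WT, with 0 of the 4 arrays well above background.

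aqp4, the water channel gene of glia in mammals, was at 1.81 and 0.10 on the mutant arrays, against 3.68 and 3.78 on the WT arrays. Both WT arrays were well above background and neither mutant array was. The log2 difference of the measured values was -2.78 ± 0.63 (SE) and did not pass (limma adjusted p = 0.0624). With the filter met only through WT, a fall cannot be claimed from this difference. It passed only with a variance trend on mean signal, at an adjusted p of 0.0426, over a range from 0.0426 to 0.187 among the alternatives. With normexp on the raw median signal it was -0.43. Of 7 tested glia and neuron markers 4 fell, 0 rose and 3 did not pass, with a median of -1.15 and a summed signal of 701 and 755 in mutants against 1387 and 1843 in WT; 1 of the 4 passed the filter only through WT. fabp7a, a radial glia gene, differed by -3.09 and glula, a glutamine synthetase gene, by -0.09. Their part in the aqp4 difference was not tested.

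aqp8b, which encodes another Aqp8 channel, stood apart between the WT arrays. It was at 2.77 and 2.68 on the mutant arrays, against 9.04 and 1.22 on the WT arrays. As deposited, its signal was 7.03 and 7.21 in mutants, 472 on WT array 1 and 2.24 on WT array 2. Only mutant array 2 and WT array 1 were well above background. 0 of the 11536 tested genes had a larger gap between the WT arrays than the 7.82 log2 units of aqp8b, whereas the median gap was 0.19. The log2 difference between groups was -2.41 ± 2.78 (SE, limma adjusted p = 0.607). It was 1.5 without WT replicate 1 and -6.32 without WT replicate 2, so 1 array decided its sign. The value of 1.5 rests on WT array 2, where aqp8b was not well above background.

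Liver, gut and pancreas markers also differed between the WT arrays, in both directions: 5 of 10 were higher on WT array 1 and 5 on WT array 2. Their summed signal was 11042 and 10261 on the mutant arrays, against 32424 on WT array 1 and 5640 on WT array 2, a ratio of 5.75 between the WT arrays that rests mainly on tfa and fabp10a. All 10 markers were well above background on at least 1 array, but apoa1a and ela2l were so on mutant arrays only. Between the groups 2 rose, 1 of them having passed the filter only through mutants, 0 fell and 8 did not pass, with a median of -0.05. tfa, a transferrin gene, was at 13.19 and 13.11 in mutants and at 14.43 and 11.74 in WT. fabp10a, a liver fatty acid binding protein gene, was at 8.81 and 8.64 in mutants and at 13.21 and 10.37 in WT. The 5 pancreas genes of the list were all lower on WT array 1 than on WT array 2. The hormone gene ins was at 5.19 and 8.67 on those arrays and gcga at 4.29 and 7.21. The digestive enzyme genes differed less, with cpa5 at 6.44 and 6.73 and prss1 at 6.42 and 6.80. ela2l, not well above background on either WT array, was at 0.84 and 1.70. These 5 were named after their values were seen. The 4 pronephros markers summed to 128 and 152 in mutants, 431 on WT array 1 and 108 on WT array 2. The brightest, slc20a1a, was at 7.85 and 6.21 on the WT arrays, and cdh17, a cadherin gene, at 7.19 and 3.39. The part of these tissues in the aqp8b signal was not tested.

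Another aquaporin gene, aqp12, is listed on the platform under a clone name, was not taken by the rule and was looked up after values were seen, as were mipa and mipb. It was at 7.22 and 6.91 on the mutant arrays, against 9.04 on WT array 1 and 6.42 on WT array 2, again highest on WT array 1, with a log2 difference of -0.66 ± 0.95 (SE, limma adjusted p = 0.682). The lens aquaporin genes mipa and mipb, which have no aqp symbol, were well above background on 0 and 1 of the 4 arrays.

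**Figure D4:**
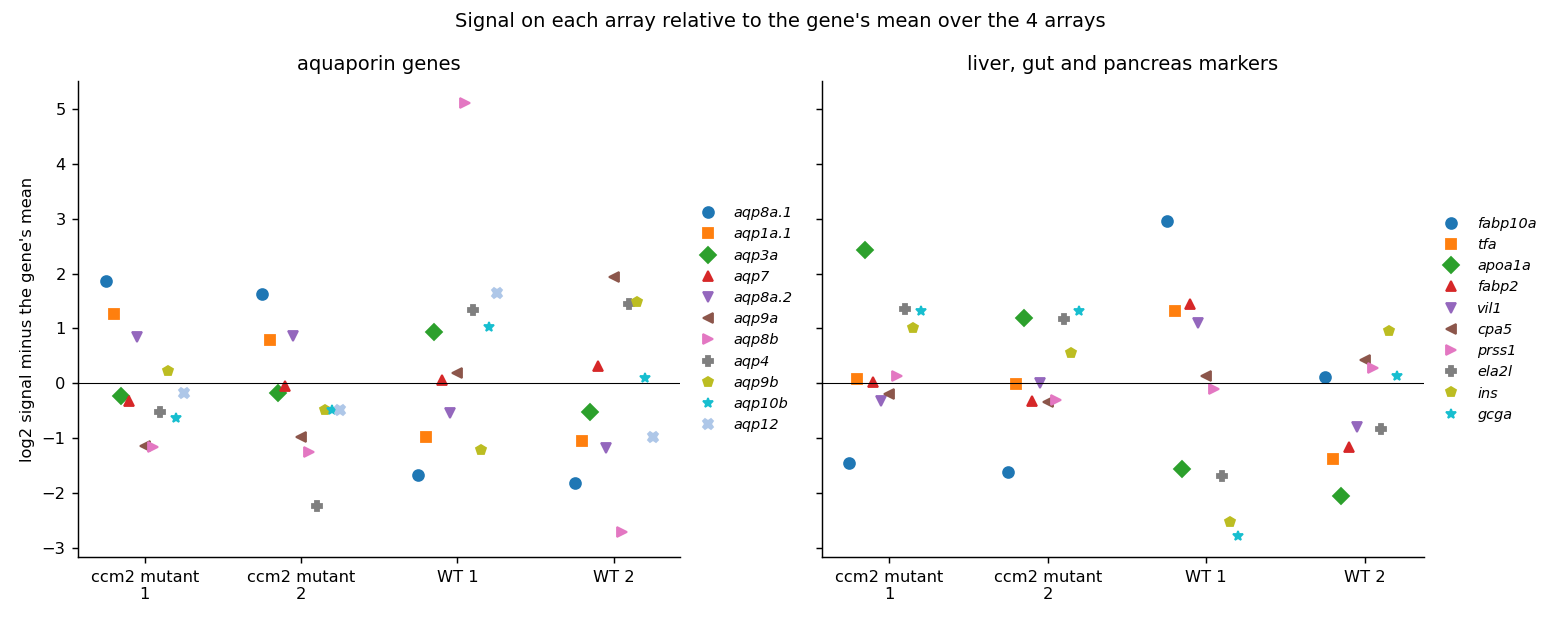
Log2 signal of the 10 aquaporin genes and aqp12 (left) and of all 10 liver, gut and pancreas markers (right) on each array, relative to the mean of the gene over the 4 arrays, with 1 point per gene and array. aqp8b, aqp12, aqp3a and aqp10b are highest on WT 1, whereas aqp9a, aqp9b, aqp7 and aqp4 are highest on WT 2. Of the 10 markers, 5 are higher on WT 1 than on WT 2 and 5 lower.

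**Figure D5:**
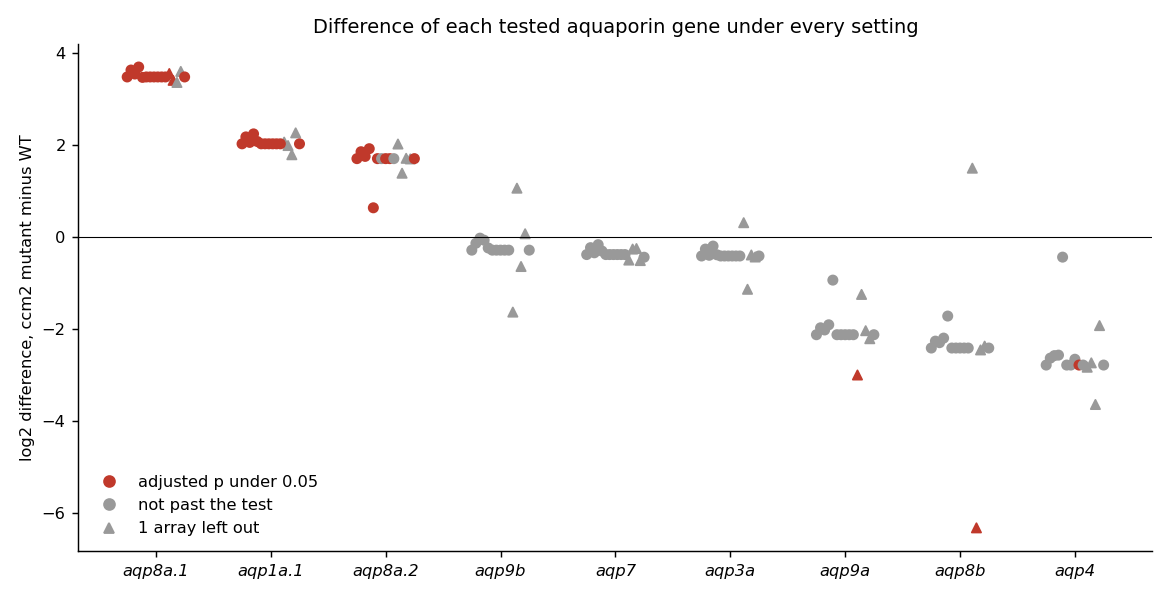
Log2 difference (ccm2 mutant minus WT) of the 9 tested aquaporin genes under the reported setting and each alternative that tested them, with triangles where 1 array was left out; red points passed the test and grey points did not. aqp8a.1 stays between 3.37 and 3.70, while aqp8b runs from -6.32 to 1.5.

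Genes that work with aquaporins were taken from 4 lists. Their counts are to be read beside the 17.1% of all 11536 tested genes that passed, 8.09% as higher and 9.02% as lower in mutants. Water follows salt, and among 19 tested genes of salt and bicarbonate transport 1 rose, 3 fell and 15 did not pass, with a median log2 difference of 0.05. slc12a4, a potassium and chloride cotransporter gene, was at 9.42 and 9.17 in mutants against 8.23 and 8.31 in WT, and rose by 2.04-fold. The 3 that fell encode sodium pump subunits. atp1a1b differed by -2.80 (limma adjusted p = 0.00879), and by -1.54 with normexp on the raw median signal. The other 2 passed the filter only through their WT arrays, so a fall was built into their being tested: atp1a3b was at 0.46 and 1.31 on the mutant arrays against 6.89 and 6.99 on the WT arrays, and atp1b2b at 1.17 and 1.05 against 5.79 and 7.22. This pair encodes subunits known from neurons and glia, whose markers are given above. The part of those cells in these values was not tested.

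Among 10 tested genes of membrane anchors and scaffolds, which hold aquaporins and other proteins at the membrane, 1 rose, 0 fell and 9 did not pass, with a median of -0.19. The one that rose was ezrb, an ezrin gene, by 1.53 on the log2 scale, and by 0.88 with normexp on the raw median signal. Of 11 tested genes of vasopressin signalling and cell volume response 1 rose, 2 fell and 8 did not pass, with a median of -0.19. sgk1, a kinase gene of the response to salt and cell volume, was at 13.83 and 13.97 in mutants against 11.90 and 11.85 in WT, a rise of 4.07-fold (limma adjusted p = 0.0113). avpr1ab, a vasopressin receptor gene, was at 1.77 and 2.17 in mutants, not well above background, against 6.56 and 6.65 in WT (limma adjusted p = 0.00735). slc6a6b, a taurine transporter gene, differed by -2.57, and by -1.09 with normexp on the raw median signal.

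Of 17 tested genes of glycerol, urea and gas transport 3 rose, 2 fell and 12 did not pass, with a median of -0.25. The rises were gpd1c, a glycerol-3-phosphate dehydrogenase gene, by 1.89, lipea, a hormone-sensitive lipase gene, by 1.85, and ca15a, a carbonic anhydrase gene. ca15a was at 4.49 and 4.49 in mutants against 3.04 and 2.33 in WT (limma adjusted p = 0.0352), with neither WT array well above background. With normexp on the raw median signal, the log2 difference was 1.81 for gpd1c, 1.03 for lipea and only 0.21 for ca15a. The falls were cahz, a carbonic anhydrase gene of red blood cells, which differed by -4.44, and rhd, an Rh family gene, by -1.74, beside the 9 of 12 red blood cell markers that fell. The part of red blood cells in these falls was not tested.

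By the fixed rule of likeness, the 5 named genes closest to aqp8a.1 were znf521, cart3, emp3b, aifm4 and znf1156. The measure was the Euclidean distance between log2 values centred on their own mean over the 4 arrays, and it ran from 0.13 for znf521 to 0.19 for znf1156. The log2 differences of these 5 genes lay between 3.34 and 3.67, which the choice fixes. With 4 arrays in 2 groups, such likeness mostly reflects a similar difference between the groups.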

How the data were processed

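The authors deposited intensity as the processed signal of Agilent Feature Extraction 10.5.1.1, which subtracts background, detrends each array and puts surrogates in dim spots, per the file headers. They were not scaled between arrays. All 43803 intensity values per array recurred in the series value table, and a deposited raw median table served 1 alternative. Deposited quality statistics (other values) came from the header file, in which the 2 mutant blocks carry each other's barcode; blocks were matched by name. Per the labels' protocols, 200 ng of RNA was amplified per sample, and samples were grouped by title.

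Arrays were brought to a common 75th percentile on the log2 scale, and spots of one probe were averaged. The platform named 21061 features with 1 symbol, 0 with several and 22742 with none. Current symbols, changed or not, were looked up for 20133 through gene identifiers and 408 through accessions. Probes above the 40th percentile on at least 2 arrays went into a two-sided limma 3.58.1 fit (R 4.3.3; lmFit, then eBayes; 2 residual and 1.97 prior degrees of freedom), and the fit was tested on simulated data. A gene was read from its brightest probe. The header counts features well above background, and that many of the brightest were taken as such; no fold is given against a group without such an array. The members and lists were chosen with earlier results of these data known. The rule for naming genes took all members, list genes past the test (up to 3 each way), the 2 brightest markers per list and the 5 nearest patterns. Epicardial, skeletal muscle, cartilage and lens markers were given as counts only. Further genes were named outside this rule, some of them after their values were seen. Figures used matplotlib 3.10.9.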

Additional observations from a re-analysis of the deposited data

How the results depend on the processing

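The 15 alternatives covered scaling, background, input table, filter, floor, variance model, block, left-out arrays and probe averaging. The count of called genes, 1974, was 1118 with no filter, 3013 with a variance trend and 842 with replicate number as a block, and 0 to 556 with 1 array left out. The same-numbered arrays deviated together only weakly (r = 0.07 across probes), and the labels give no pairing. The count of called aquaporin genes, 3, was 2 with the replicate block, where the limma adjusted p of aqp8a.2 was 0.0638. It was also 2 with no filter and with the 60th percentile filter, aqp8a.1 and aqp1a.1 in each case. A variance trend gave 4, with aqp4 added. With 1 array left out, aqp1a.1 and aqp8a.2 were not called. aqp8a.1 was then called only with a WT array left out, where aqp9a or aqp8b entered. aqp8a.1, aqp1a.1 and aqp8a.2 kept their direction in every alternative that tested them; the filter at the 60th percentile on all 4 arrays did not test aqp8a.2. With 1 array left out, the log2 difference ran from -1.13 to 0.32 for aqp3a, from -6.32 to 1.5 for aqp8b and from -1.63 to 1.07 for aqp9b, which was 0.08 without mutant replicate 2. aqp7 kept its sign and missed the test in all 15. Over all tested genes the median log2 difference, -0.04, was 0.11 under median scaling and 0.17 unscaled. The causes were not tested. Dim signal limits aqp4, aqp8b, aqp9b and aqp10b most.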

Other observations

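Genes that followed aqp8b across the 4 arrays were looked up after its values were seen, by the same distance as for aqp8a.1. The closest was cratb, which encodes a carnitine acetyltransferase, at 9.20 and 9.15 on the mutant arrays, against 14.90 on WT array 1 and 8.38 on WT array 2. The others of the 5 closest, in order of distance, were glis3, pnp4b, star and allc. On WT arrays 1 and 2, glis3 was at 6.23 and 0.17, pnp4b at 9.11 and 4.05 and allc at 7.32 and 2.84. star, which encodes the cholesterol carrier of steroid-making cells, was at 2.63 and 3.32 on the mutant arrays, against 8.15 and 3.25 on the WT arrays. The distances, from 0.92 for cratb to 2.405 for allc, were larger than the 0.13 to 0.19 of the genes closest to aqp8a.1.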
